A study of Caenorhabditis elegans with 9 samples.

Results

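Metallothioneins, a ferritin, secreted proteins and other products whose genes respond to the transcription factor DAF-16 are described here by 8 Caenorhabditis elegans genes, mtl-1, mtl-2, dod-3, dod-22, dod-24, lea-1, scl-1 and ftn-1. They were found as every probe set of the deposited table that the platform annotation assigns to one of these genes alone, which gave 15 of 22548 probe sets and 8 of 17118 annotated genes. The set was picked for the low signals of dod-3 and mtl-1 in these transgenic animals, so all comparisons of its members with N2 are given as descriptions, without p-values. Counts of members past the limma threshold are given beside those of all probe sets, and nothing is read from them. RNA was measured on 9 arrays from whole animals labelled as first-stage (L1) larvae, raised on OP50 bacteria after synchronisation with bleach. N2, the wild-type laboratory strain without a transgene, was the control. Strain JS62 carried aex-3::his-SUMO-1, in which the promoter of a neuronal gene drives His-tagged SUMO-1, and strain JS63 carried myo-4::his-SUMO-1, in which a promoter of a body wall muscle myosin gene does so; they are called aex-3 SUMO and myo-4 SUMO. Each group had 3 arrays, one per biological replicate population. One line stands for each construct, so effects of the construct and of the line cannot be told apart.

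DAF-16 is the worm's FOXO transcription factor. Signalling through the insulin receptor DAF-2 leads to its phosphorylation by kinases such as AKT-1 and AKT-2 and keeps it out of the nucleus, and when signalling is low it enters the nucleus and changes genes that bear on stress resistance, metabolism and lifespan. Genes raised by active DAF-16 are known as class 1 and genes lowered by it as class 2. Of the 8 genes, mtl-1, mtl-2, dod-3, lea-1, scl-1 and ftn-1 are known as genes that DAF-16 can raise, while dod-22 and dod-24 are known from the class it lowers. Several have other inputs, such as metals for the metallothioneins, iron for ftn-1 and infection for dod-22 and dod-24.

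The arrays had been scaled to a common trimmed mean before deposit, and values are given as signal, the linear array intensity, as mean ± SD with n = 3 per group. Changes are log2 fold changes ± SE on the log2(signal + 1.619) scale from limma, fitted to the 14204 probe sets bright enough to test. The number of arrays limits the precision. Along the first principal component, with 61.6% of the variance, N2 (-61.8 to -39.2) lay apart from both transgenic lines (19.1 to 31.6), and N2 replicate 1 stood apart along the second (36.9 against -17.9 and -14.8 for the other N2 arrays). When arrays were centred on their medians instead of keeping the scaling as deposited, the median change over all probe sets went from -0.037 to 0.181 in aex-3 SUMO, from 0.004 to 0.151 in myo-4 SUMO, and from 0.019 to -0.052 between lines. Against the label of first-stage larvae, markers of oocytes lay at a median percentile of 93.3 to 97.7 and those of sperm at 97.0 to 98.2 on every array, so the animals are called by their labels only. Of 11 oocyte markers 10 rose in each line against N2 in the limma test, where 24.6% and 24.2% of all genes rose. Their summed signal was 7243 to 11856 on N2 arrays, 14749 to 15805 for aex-3 SUMO and 14354 to 16480 for myo-4 SUMO. Of 7 sperm markers 1 rose and 1 fell in aex-3 SUMO, and 0 rose and 1 fell in myo-4 SUMO. Most markers of somatic tissues fell, where 24.7% of all genes fell in aex-3 SUMO and 21.1% in myo-4 SUMO. Of 7 hypodermal markers 6 fell in aex-3 SUMO and 5 in myo-4 SUMO. For neurons 7 and 6 of 8 markers fell, and for body wall muscle 6 and 5 of 7. In the other direction, the muscle marker unc-22 rose in both lines (0.86 and 1.65) and the intestinal marker pept-1 in myo-4 SUMO (0.28). Of 13 intestinal markers, 11 fell in each line, with a summed signal between 23552 and 26592 on N2 arrays, between 13286 and 14686 for aex-3 SUMO, and between 11999 and 15564 for myo-4 SUMO. The part of these shifts in the values below was not tested, and in whole animals fewer cells of a type and less RNA per cell cannot be told apart.

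The genes mtl-1 and mtl-2 encode the worm's metallothioneins, small cysteine-rich proteins that bind metals. The signal of mtl-1 was 386, 318 and 832 on N2 replicates 1, 2 and 3. It was 118, 118 and 42.0 in aex-3 SUMO and 37.4, 22.2 and 32.6 in myo-4 SUMO. No transgenic array reached the lowest N2 array, and all myo-4 SUMO arrays lay below all aex-3 SUMO arrays. The mean was 5.52-fold lower in aex-3 SUMO and 16.7-fold lower in myo-4 SUMO than in N2, with log2 changes of -2.46 ± 0.39 and -3.89 ± 0.39. Ordered from the lowest change among the 14204 probe sets, mtl-1 stood at place 19 in aex-3 SUMO and at place 7 in myo-4 SUMO.

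The other metallothionein gene, mtl-2, is expressed in the intestine, and its 3 probe sets were among the brightest of the array, at the 97.3th to 99.1th percentile. On the brightest of them (194150_x_at) the signals were 1722, 1865 and 2829 in N2, 2168, 2876 and 3214 in aex-3 SUMO and 2390, 2496 and 2251 in myo-4 SUMO. The groups overlapped, and the log2 changes were 0.38 ± 0.18 in aex-3 SUMO and 0.19 ± 0.18 in myo-4 SUMO. The remaining probe sets gave 0.23 ± 0.12 (188487_s_at) and 0.71 ± 0.19 (194151_x_at) in aex-3 SUMO, and 0.10 ± 0.12 and 0.44 ± 0.19 in myo-4 SUMO. All 3 had positive changes in both lines, where mtl-1 had strongly negative ones, so the metallothionein genes did not share a direction.

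Ferritin stores iron, and ftn-1 encodes a ferritin of the intestine whose transcript is known to follow iron. Its signal was 111, 133 and 137 in N2, 106, 82.4 and 51.4 in aex-3 SUMO and 82.4, 78.6 and 94.4 in myo-4 SUMO. Every transgenic array lay below every N2 array, with a narrow gap between the brightest aex-3 SUMO array and N2 replicate 1. The changes were -0.71 ± 0.21 and -0.56 ± 0.21. The other ferritin gene, ftn-2, named after its values were seen, did not pass the limma test in either line, with changes of -0.08 and 0.03.

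The gene dod-3, named as downstream of DAF-16, is a class 1 gene. Its signal was 1195, 1003 and 2025 in N2, 311, 273 and 158 in aex-3 SUMO and 69.4, 58.1 and 101 in myo-4 SUMO. The 3 groups formed separate ranges, with N2 highest and myo-4 SUMO lowest. The mean was 5.69-fold lower in aex-3 SUMO and 18.5-fold lower in myo-4 SUMO, with log2 changes of -2.49 ± 0.29 and -4.15 ± 0.29. From the lowest change upward, dod-3 stood at place 18 in aex-3 SUMO and at place 4 in myo-4 SUMO of 14204 probe sets. Its percentile on an array ran from 64.3 to 98.2, so even its lowest signal was above that of most probe sets.

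**Figure D1:**
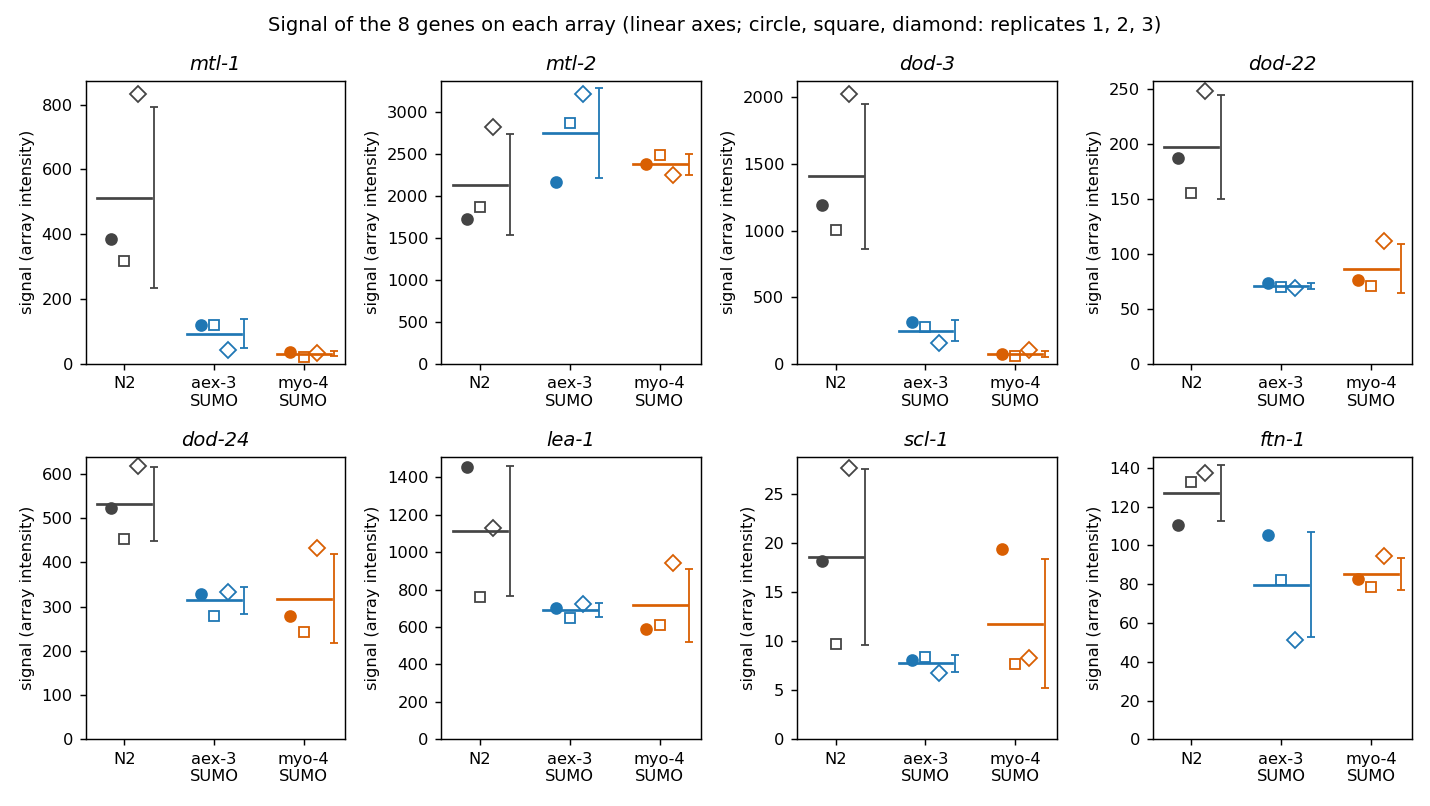
Signal of the 8 genes (vertical axes, linear, in units of array intensity) in the 3 groups, on the probe set of each gene with the highest mean signal. Points are single arrays, horizontal lines are group means and error bars are the SD (n = 3); dod-3 and mtl-1 form 3 separate ranges, mtl-2 overlaps, and N2 replicate 3 is the highest N2 array for 7 of the 8 genes.

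Late embryogenesis abundant proteins protect cells from drying, and lea-1 encodes one that is induced under desiccation. RefSeq lists 17 transcripts for it, and 6 probe sets name it. On 174552_s_at, the brightest, the signals were 1455, 762 and 1128 in N2, 699, 647 and 723 in aex-3 SUMO and 592, 612 and 941 in myo-4 SUMO. All aex-3 SUMO arrays lay below N2, and 1 myo-4 SUMO array lay within the N2 range. Its changes were -0.64 ± 0.21 and -0.62 ± 0.21, and those of 187999_at were -0.66 ± 0.24 and -0.71 ± 0.24. Without N2 replicate 1, the changes of 174552_s_at were -0.43 and -0.41 and those of 187999_at were -0.31 and -0.36.

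The other 4 probe sets of lea-1 did not share this pattern. The signals of 174700_at were 307, 358 and 330 in N2, 409, 348 and 416 in aex-3 SUMO and 440, 451 and 386 in myo-4 SUMO, and its changes were 0.23 ± 0.12 and 0.36 ± 0.12. All transgenic arrays but aex-3 SUMO replicate 2, which lay within the N2 range, were above N2, the opposite side from 174552_s_at. The changes of 172489_x_at were 0.25 ± 0.17 and 0.31 ± 0.17, those of 182767_at were -0.09 ± 0.18 and -0.17 ± 0.18, and those of 184322_at were -0.03 ± 0.12 and 0.11 ± 0.12. Over the 9 arrays 174552_s_at correlated with 187999_at at r = 0.948 and with 174700_at at r = -0.806, as a description of points that share their groups. The probe sequences were not used here, so it is unknown which transcripts each probe set detects, and lea-1 as a whole has no single direction.

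**Figure D2:**
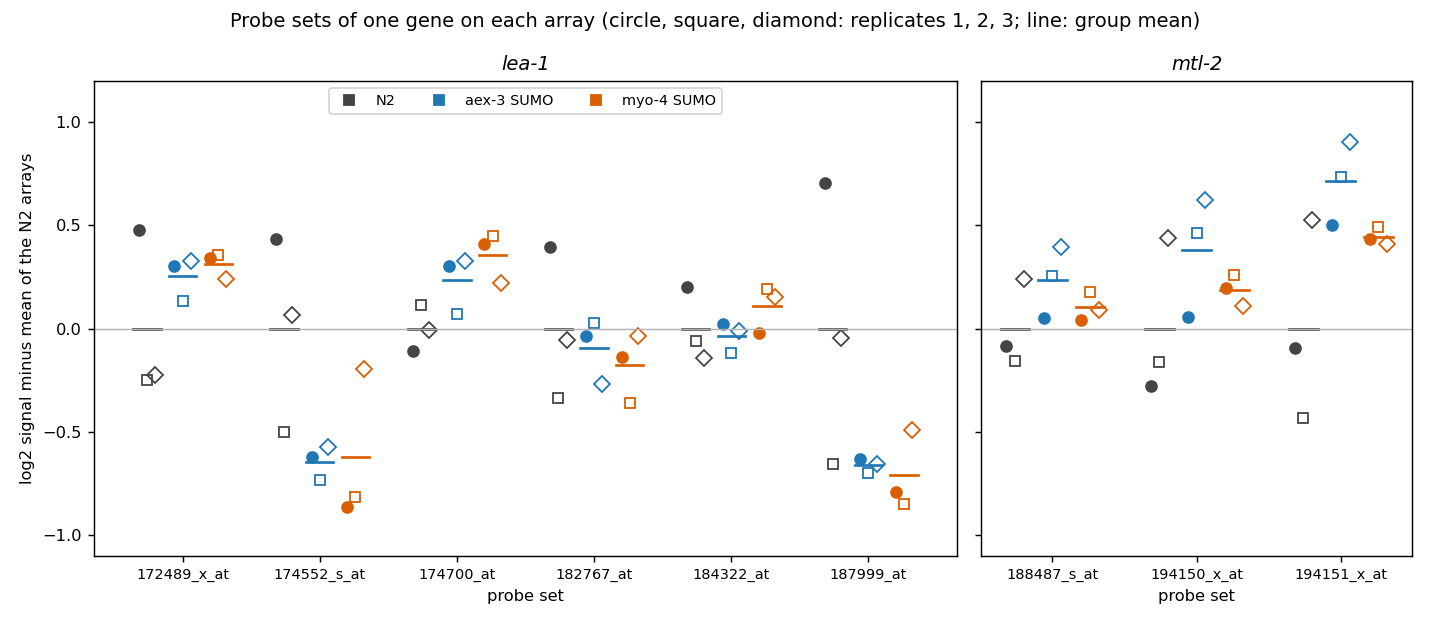
log2 signal of the 6 lea-1 probe sets and the 3 mtl-2 probe sets on every array, less the mean of the 3 N2 arrays for that probe set (vertical axis, log2 units). Points are arrays and lines are group means; on 174552_s_at and 187999_at of lea-1 the transgenic means lie below N2 by 0.62 to 0.71, while those of 174700_at lie above by 0.23 to 0.36, and all mtl-2 means lie above.

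Secreted proteins of the SCP family include scl-1, which is known to be needed for the long life of animals with reduced insulin signalling. It was dim, at the 28.1th to 49.4th percentile, with signals of 18.2, 9.76 and 27.7 in N2, 8.11, 8.36 and 6.79 in aex-3 SUMO and 19.4, 7.66 and 8.31 in myo-4 SUMO. The aex-3 SUMO arrays lay below N2, while 1 myo-4 SUMO array lay above N2 replicate 1. The changes were -1.01 ± 0.39 and -0.59 ± 0.39, and without N2 replicate 3 they were -0.68 and -0.27. Of the 26 other genes of the family on the array only 7 were bright enough to test, of which 3 fell and 0 rose in each line in the limma test. Those 3 are 42.9% of a short list, where 24.7% of all genes fell in aex-3 SUMO and 21.1% in myo-4 SUMO. At an N2 signal of 2188 ± 436, scl-2, which neighbours scl-1 on chromosome IV, was much brighter. It fell to 533 ± 94.4 in aex-3 SUMO (-2.03 ± 0.20, adjusted p = 2.89e-05) and to 291 ± 78.0 in myo-4 SUMO (-2.92 ± 0.20, adjusted p = 1.65e-06). In each line vap-2 fell too (-0.77, adjusted p = 0.00173, and -0.66, adjusted p = 0.00485), scl-5 fell in aex-3 SUMO (-1.57, adjusted p = 0.00602) and vap-1 in myo-4 SUMO (-0.77, adjusted p = 0.0227).

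Proteins with CUB-like domains are encoded by dod-22 and dod-24, which are known to respond to bacterial infection and to be lowered by active DAF-16. The signals of dod-22 were 187, 155 and 248 in N2, 73.4, 69.5 and 68.7 in aex-3 SUMO and 76.2, 70.8 and 112 in myo-4 SUMO. Those of dod-24 were 523, 453 and 618 in N2, 329, 279 and 333 in aex-3 SUMO and 280, 242 and 432 in myo-4 SUMO. Neither gene overlapped with N2 in either line. The changes of dod-22 were -1.43 ± 0.19 and -1.18 ± 0.19, and those of dod-24 were -0.75 ± 0.19 and -0.77 ± 0.19. Both genes lie on chromosome IV with 6 protein-coding genes between them.

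Among the genes next to the members, those flanking dod-22 split in direction. On one side F55G11.8 fell from 230 ± 18.4 to 138 ± 10.9 in aex-3 SUMO (-0.73, adjusted p = 0.000844) and to 130 ± 20.9 in myo-4 SUMO (-0.83, adjusted p = 0.000428). On the other side F55G11.2 rose from 47.4 ± 13.5 to 75.6 ± 1.77 (0.70, adjusted p = 0.00664) and to 72.5 ± 1.60 (0.64, adjusted p = 0.0117). These neighbours were chosen after their values were seen. Of the 10 protein-coding genes nearest to mtl-1, 7 were bright enough, of which 3 fell and 2 rose in aex-3 SUMO and 2 fell and 2 rose in myo-4 SUMO. None of the 10 genes nearest to dod-3, all named as chemoreceptors, had a probe set that named it alone and was bright enough. The low signal of dod-3 thus had no tested neighbour to set it against.

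In all, 9 of the 15 member probe sets were past an adjusted p of 0.05 by limma when aex-3 SUMO was set against N2, 8 lower and 1 higher, where 48.1% of all probe sets passed, 24% lower and 24.1% higher. For myo-4 SUMO against N2 it was 8, 7 lower and 1 higher, where 44.4% passed, 20.3% lower and 24% higher. Groups did not overlap for 7 lower member probe sets in aex-3 SUMO, against 29% of all, and in myo-4 SUMO for 5 lower and 1 higher, against 25.3% and 27%. The members were chosen on these contrasts, which also share the N2 arrays, and nothing is read from the counts. The higher ones were 194151_x_at of mtl-2 in aex-3 SUMO and 174700_at of lea-1 in myo-4 SUMO. The median change of the 15 was -0.64 in aex-3 SUMO and -0.56 in myo-4 SUMO, against -0.04 and 0.0 for all probe sets. Since lea-1 supplied 6 of the 15, the median was also taken over 1 probe set per gene, a choice made after seeing the data, and was -0.88 and -0.70. Without N2 replicate 1 the median of the 15 was -0.31 in aex-3 SUMO and -0.36 in myo-4 SUMO, and without N2 replicate 3 it was -0.27 in myo-4 SUMO.

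**Figure D3:**
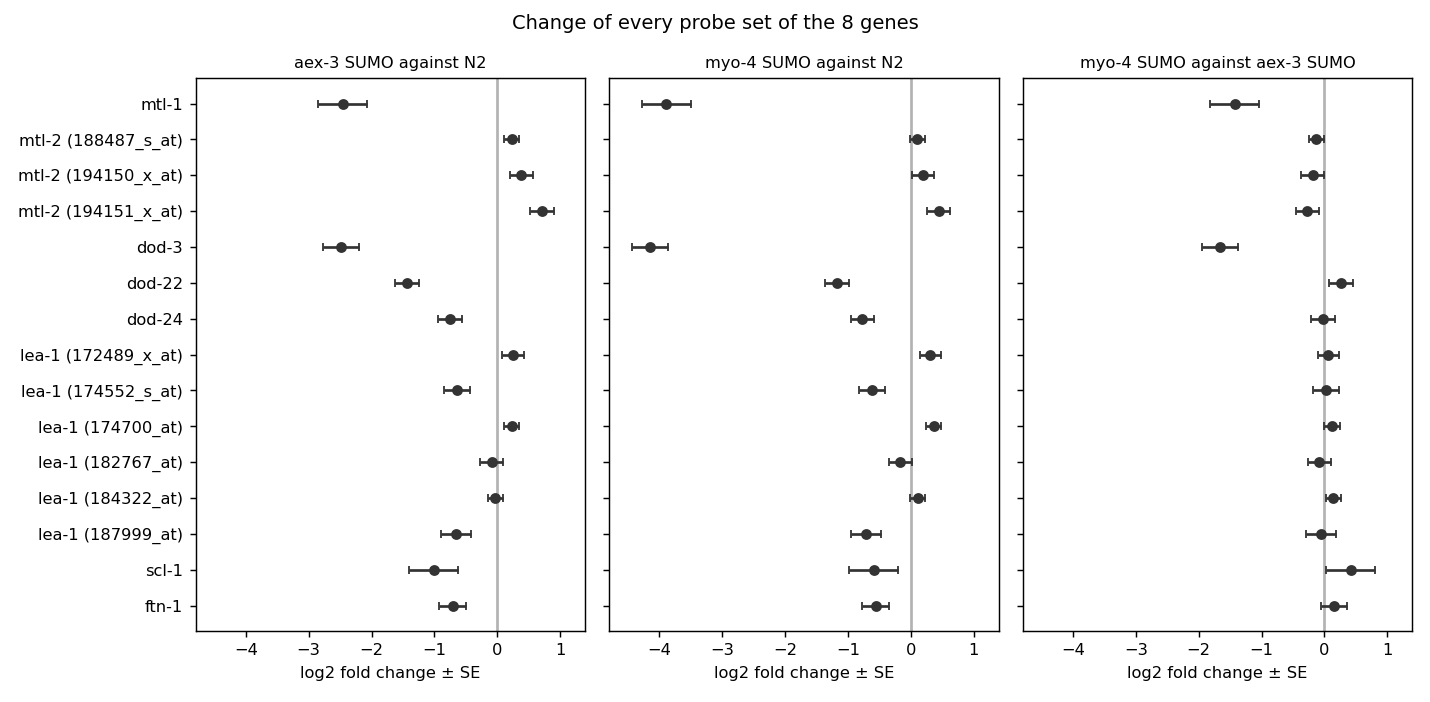
log2 fold change (horizontal axes, points) with its SE (bars) for all 15 probe sets of the 8 genes in the 3 comparisons. dod-3 and mtl-1 have the lowest values in each panel (-2.49 and -2.46, -4.15 and -3.89, -1.66 and -1.43), and the other members run from -0.27 to 0.42 between the lines.

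The lines were also compared with each other. The values of dod-3 and mtl-1 here come from the same 6 transgenic arrays whose low signals picked both genes, so their differences between the lines are given as descriptions, with no p. The change of dod-3 from aex-3 SUMO to myo-4 SUMO was -1.66 ± 0.29, and all myo-4 SUMO arrays were below all aex-3 SUMO arrays. It was among the 34 probe sets (0.239%) past the limma threshold between the lines, 8 of them (0.0563%) lower. Since dod-3 was picked on these arrays, its passing is no test of it, and nothing is read from it. It was no longer among them in 6 of the 18 alternatives: without aex-3 SUMO replicate 1 or 2, without myo-4 SUMO replicate 1 or 2, without the filter on low signal and without the intensity trend. The change itself stayed between -1.95 and -1.47. For mtl-1 the change was -1.43 ± 0.39, not past the threshold with all arrays. It was -1.92 and past it once replicate 3, the aex-3 SUMO array nearest to myo-4 SUMO, was left out. As mtl-1 was also picked on these arrays, nothing is read from that passing either. Groups did not overlap for 3 member probe sets that were lower in myo-4 SUMO, those of dod-3 and mtl-1 and 194151_x_at of mtl-2, as for 8.24% of all.

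None of the other members passed between the lines, at adjusted p = 0.758 to adjusted p = 0.991 in the limma test. The intervals show what this leaves: the 95% interval was -0.15 to 0.66 for dod-22, -0.43 to 0.38 for dod-24, -0.30 to 0.60 for ftn-1 and -0.42 to 1.25 for scl-1, whose 3 myo-4 SUMO arrays were spread widely. For the mtl-2 probe sets the intervals lay between -0.68 and 0.19, and for those of lea-1 between -0.58 and 0.48. The median change of the 15 probe sets was -0.02, against 0.02 for all probe sets. By their means dod-3 and mtl-1 were ordered N2, aex-3 SUMO, myo-4 SUMO from high to low, while the order of the lines was within the spread for dod-22, dod-24 and ftn-1.

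Within groups, the same arrays were often the highest or lowest for several members. N2 replicate 3 was the highest N2 array for 7 of the 8 genes (1 probe set per gene), the exception being lea-1, and N2 replicate 2 was the lowest for 6. In aex-3 SUMO, replicate 3 was the lowest for 5 genes, mtl-1, dod-3, dod-22, scl-1 and ftn-1. In myo-4 SUMO, replicate 2 was the lowest for 6. On the first principal component N2 replicate 3 (-61.8) was the N2 array farthest from the transgenic lines, and aex-3 SUMO replicate 3 (31.6) the transgenic array farthest from N2. Across the 9 arrays the log2 signal of dod-3 correlated with that of mtl-1 at r = 0.987, with dod-22 at 0.830, with dod-24 at 0.828, with ftn-1 at 0.718, with lea-1 at 0.701, with scl-1 at 0.519 and with mtl-2 at -0.306. These values describe points that fall into groups by line, and they carry no test.

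The probe sets most like dod-3 over the 9 arrays, by Pearson correlation of log2 signal, were those of F49H6.5 (r = 0.9917), T04A6.1 (r = 0.9910) and Y7A5A.25 (r = 0.9897). Those most like mtl-1 were Y7A5A.25 (r = 0.9927), T12D8.5 (r = 0.9913) and T16G1.4 (r = 0.9907). T12D8.5 had a mean signal of 709 ± 350 in N2 and of 35.9 ± 2.42 in myo-4 SUMO, beside 512 ± 279 and 30.7 ± 7.80 for mtl-1. The mean of F49H6.5 went from 112 ± 75.7 to 15.7 ± 9.07 and 1.34 ± 1.24, the last near the floor of the array.

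Genes other than the members were taken from a list of 39 drawn up for this report as raised by DAF-16. Whether DAF-16 raises each of them, or lowers each gene of the second list below, was not tested here. Of the 39, 30 were on the array and 27 bright enough to test. In aex-3 SUMO 12 fell and 3 rose, and in myo-4 SUMO 17 fell and 2 rose, in the limma test. Among all 10768 genes 24.7% fell in aex-3 SUMO and 21.1% in myo-4 SUMO, against 44.4% and 63.0% of the list. This list and the other lists were chosen with earlier results of these data known. Their shares, and the adjusted p-values of genes named from them, are therefore given as descriptions. The list's medians were -0.24 and -0.42, and under median centring 8 fell and 8 rose in aex-3 SUMO (median -0.02) and 11 fell and 4 rose in myo-4 SUMO (median -0.27). Among all probe sets under that centring, 71.5% of the 7177 called were higher in aex-3 SUMO (median 0.181). In myo-4 SUMO it was 70% of the 6596 called (median 0.151). Markers of intestine (11 of 13 in each line), hypodermis (6 and 5 of 7), neurons (7 and 6 of 8) and body wall muscle (6 and 5 of 7) fell in the same samples. The muscle marker unc-22 rose in both lines and the intestinal marker pept-1 in myo-4 SUMO. Whether these markers bear on the list was not tested.

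In the DAF-16-raised list the gene with the lowest change in aex-3 SUMO was nnt-1, which encodes a mitochondrial nicotinamide nucleotide transhydrogenase. Its signal was 250, 163 and 385 in N2, 60.6, 42.6 and 23.6 in aex-3 SUMO and 22.1, 18.4 and 27.96 in myo-4 SUMO. All transgenic arrays lay below N2, and it fell by 2.61 ± 0.32 (adjusted p = 8.01e-05) and 3.38 ± 0.32 (adjusted p = 1.69e-05) on the log2 scale. The glyoxylate cycle gene icl-1 fell from an N2 mean of 2420 ± 329 to 1276 ± 174 (-0.92, adjusted p = 0.000182) and 904 ± 88.6 (-1.42, adjusted p = 1.39e-05). The transthyretin-like gene ttr-44 fell by 1.5 and 1.69, and the acid ceramidase gene asah-1 by 1.51 and 1.39. Chosen after its values were seen, tts-1, a long noncoding RNA, went from 1873, 2960 and 2781 on N2 arrays to 1890, 1322 and 395 in aex-3 SUMO and 215, 127 and 398 in myo-4 SUMO. It overlapped N2 in aex-3 SUMO (-1.32 ± 0.48, adjusted p = 0.0390) and did not in myo-4 SUMO (-3.48 ± 0.48, adjusted p = 0.000177).

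Members of the same list did not all move. The superoxide dismutase gene sod-3, a common reporter of DAF-16 activity, was dim, at the 39.3th to 52.6th percentile. Its signals were 15.4, 21.3 and 21.7 in N2, 17.7, 15.5 and 27.3 in aex-3 SUMO and 13.9, 22.3 and 22.8 in myo-4 SUMO. The groups overlapped fully, and its change in aex-3 SUMO was 0.02 ± 0.26 (adjusted p = 0.953). The delta-9 desaturase gene fat-5 rose by 1.57 in aex-3 SUMO (adjusted p = 0.000226) and by 1.36 in myo-4 SUMO (adjusted p = 0.000596), from a mean of 24.3 to means of 71.2 and 61.5, with no overlap. Both were named after their values were seen.

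Among genes listed as lowered by DAF-16, dod-22 and dod-24 left out, more rose than fell. Of 15 listed, 10 were bright enough, of which 5 rose and 1 fell in aex-3 SUMO and 7 rose and 1 fell in myo-4 SUMO in the limma test, against 24.6% and 24.2% of all genes that rose. The medians were 0.51 and 0.50, and under median centring 8 rose and 1 fell in each line, where 71.5% and 70% of all called probe sets were higher. The signals of dod-19 were 460, 523 and 223 in N2, 621, 698 and 638 in aex-3 SUMO and 757, 863 and 924 in myo-4 SUMO. All transgenic arrays lay above N2, and dod-19 rose by 0.79 ± 0.24 (adjusted p = 0.0156) and 1.16 ± 0.24 (adjusted p = 0.00194). In the same direction, dod-23 rose by 1.01 and 0.81, the yolk protein gene vit-5 by 0.58 and 0.43, and the lysozyme gene lys-10 in myo-4 SUMO by 2.89 from a dim N2 signal (4.99 ± 2.82 to 45.2 ± 12.4). The deoxyribonuclease gene nuc-1 fell by 1.12 and 1.34, and the insulin-like gene ins-7, named after its values were seen, did not pass (-0.06 and -0.11). The list holds vit-2 and vit-5, which are also yolk markers, and of the 5 yolk markers on the array 4 rose in aex-3 SUMO and 3 in myo-4 SUMO.

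**Figure D4:**
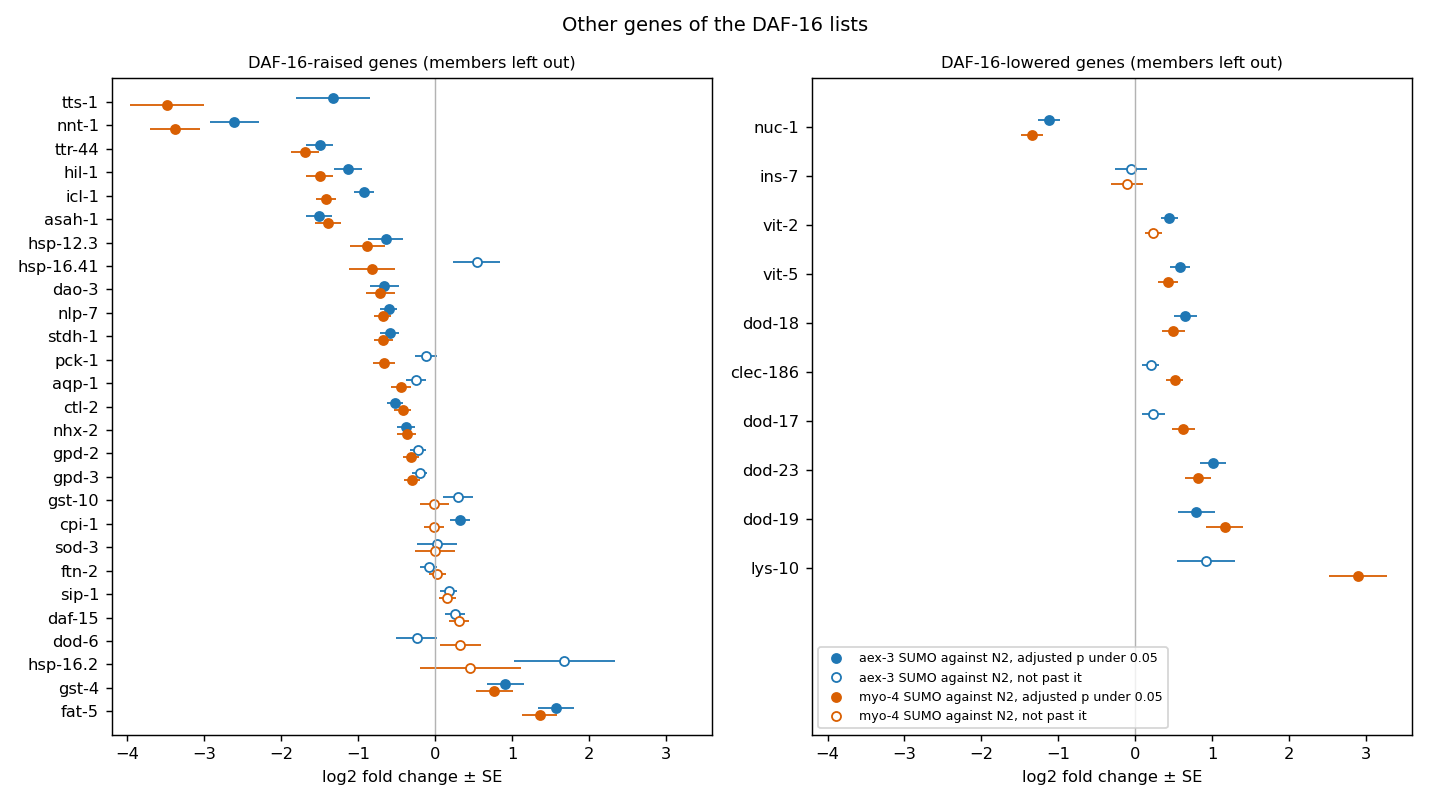
log2 fold change against N2 (horizontal axes) with SE (bars) for 27 genes listed as raised by DAF-16 and 10 listed as lowered by it, members left out. Values are for aex-3 SUMO (blue) and myo-4 SUMO (orange). Filled points passed an adjusted p of 0.05. In the first panel 12 and 17 genes lie below 0 past the threshold, and in the second 5 and 7 lie above.

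Upstream of these outputs, daf-16 itself did not pass the limma test, with signals of 234, 159 and 157 in N2, 180, 165 and 128 in aex-3 SUMO and 168, 158 and 165 in myo-4 SUMO. Its changes were -0.20 ± 0.17 (adjusted p = 0.323) and -0.14 ± 0.17 (adjusted p = 0.510). The 4 probe sets of daf-2, the insulin receptor gene, were too dim to test, at signals of 0.242 to 14.7. Of 19 insulin pathway genes bright enough, 4 rose and 7 fell in aex-3 SUMO and 3 rose and 4 fell in myo-4 SUMO. That is 21.1% and 15.8% that rose, where 24.6% and 24.2% of all genes rose. The shares that fell were 36.8% and 21.1%, where 24.7% and 21.1% of all genes fell. Under median centring 8 rose and 3 fell, and 7 rose and 3 fell, where 71.5% and 70% of all called probe sets were higher. Among the genes that fell were the kinase genes akt-2 (-0.95 and -0.89, adjusted p = 0.00155 and adjusted p = 0.00257) and sgk-1 (-0.68 and -0.66, adjusted p = 0.00124 and adjusted p = 0.00164), in both lines; the genes that rose are given by their counts only.

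Genes of metal and iron handling, the other known input of the metallothioneins and ftn-1, rose about as often as all genes. Of 24 bright enough, 6 rose and 3 fell in aex-3 SUMO, and 7 rose and 3 fell in myo-4 SUMO, in the limma test. That is 25.0% and 29.2% that rose, where 24.6% and 24.2% of all genes rose, and 12.5% that fell in each line, where 24.7% and 21.1% of all genes fell. Under median centring 11 rose and 1 fell, and 10 rose and 2 fell, where 71.5% and 70% of all called probe sets were higher. The zinc transporter gene cdf-2 fell from 109 ± 27.4 to 42.7 ± 8.93 and 37.6 ± 5.84 (-1.3 and -1.47, adjusted p = 0.000360 and adjusted p = 0.000188). The zinc transporter genes zipt-7.1 (1.12 and 1.08) and zipt-2.4 (0.71 and 0.78) rose, as did mxl-3 (1.1 and 0.88), which encodes a transcription factor. The metals in the animals or their medium were not measured here.

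Of 25 infection-responsive genes listed with dod-22 and dod-24 that were bright enough, 14 fell and 6 rose in aex-3 SUMO, and 10 fell and 6 rose in myo-4 SUMO, against 24.7% and 21.1% of all genes that fell. Under median centring 11 fell and 9 rose, and 8 fell and 8 rose. Of all probe sets called under that centring, 71.5% and 70% were higher. The balance of directions in myo-4 SUMO thus moved with the scaling, as it did among all probe sets. The list shares spp-1 and elt-2 with the intestinal markers. The saposin-like gene spp-1, an antimicrobial effector of the intestine, fell by 1.35 and 1.82 (adjusted p = 3.31e-05 and adjusted p = 3.81e-06), irg-3 by 1.2 and 1.09, and the flavin-containing monooxygenase gene fmo-2 by 2.70 and 2.08. In contrast sysm-1 rose from 103 ± 54.3 to 491 ± 67.1 (2.35, adjusted p = 5.07e-05) and 296 ± 22.1 (1.62, adjusted p = 0.000462). Between the lines irg-5 was the gene of this list that passed, higher in myo-4 SUMO (365.6 to 389.9) than in aex-3 SUMO (141.4 to 178.7), by 1.21 (adjusted p = 0.0196). It was named after its values were seen, and no gene of the list was called higher in 6 of the 18 alternatives, those without aex-3 SUMO replicate 1 or 3, without any one myo-4 SUMO array and without the intensity trend. The changes of dod-22 and dod-24 did not pass.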

How the data were processed

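The deposited table holds linear signal intensity per probe set, made by the authors; GCOS is the program named in the submitters' processing notes, without a version; scaling target, background threshold and detection calls are not given in the sources used here. The 2% trimmed means of the arrays differed by 0.00889%, so the intensity values were used as deposited. Of 22625 probe sets, 77 controls were dropped. The log2(signal + 1.619) scale was used, whose pseudocount draws changes of dim genes toward 0. The 14204 probe sets that exceeded an array's 40th percentile on 3 or more of the 9 arrays were fitted together with limma 3.58.1 in R 4.3.3 (lmFit, eBayes with an intensity trend, 6 residual and 6.88 prior degrees of freedom). Two-sided p-values were adjusted over all of these by Benjamini-Hochberg, with a threshold of 0.05. All 15 member probe sets passed the filter. Fold changes of mean signal are ratios of group means.

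Probe sets were named through the platform annotation and RefSeq gene identifiers (assembly WBcel235, for names, chromosomes and neighbours only); 20766 had 1 gene, 887 several and 895 none. Lists use 1 probe set per gene, that with the highest mean signal, and share a few genes (ins-7, dod-17, ftn-2, vit-2, vit-5, spp-1 and elt-2). Named genes are all members, daf-16, daf-2, and from each list the 3 with the smallest p in each line against N2 (1 where under 3 passed), besides those said to be named after their values were seen. One gene that this rule names is not reported here. The members and lists were chosen with earlier results of these data known. Adjusted p-values of genes named by their smallest p or after their values were seen are descriptions, not separate tests. In tests on simulated data for myo-4 SUMO against aex-3 SUMO with 14204 probe sets, the share called was 37.3% for the 67 simulated at 1.5-fold, 70.1% for the 67 at 2-fold and 95.5% for the 66 at 4-fold, with 6 false calls. The p-values measure the spread between the replicate populations. Probe, promoter and protein sequences were not used here. Alternatives were quantile normalization, median centring, no filter, a stricter filter (60th percentile), pseudocounts of 1 and 16, no intensity trend, only the 2 groups compared, the replicate number as a block, and each array left out.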

Additional observations from a re-analysis of the deposited data

Results flagged for a closer look

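The change of dod-3 against N2 was lower in myo-4 SUMO than in aex-3 SUMO by -1.66 (log2), and the difference was past the limma threshold with all arrays but not in 6 of 18 alternatives. The gene was picked for its low signals on these same arrays, so the difference is given as a description and no p is attached. Its passing is no test of it, and nothing is read from it. Outlying samples were not looked for, since that needs groups of at least 4.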

How the results depend on the processing

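Over 18 alternatives the changes of dod-3, mtl-1, dod-22, dod-24, ftn-1 and scl-1 against N2 kept their sign in both lines; dod-3 ran from -2.70 to -2.19 and from -4.37 to -3.85, and mtl-1 from -2.73 to -1.97 and from -4.17 to -3.39. The median over the 15 member probe sets moved by more than its replicate SD (0.32) once, in aex-3 SUMO, where leaving out single arrays gave -0.68 to -0.31; the cause was not tested. Between the lines, the 1 member probe set past the threshold, that of dod-3, became 0 with no filter and with no intensity trend, and 0 to 2 with single arrays left out. The 34 probe sets called there became 21 with no intensity trend, 246 with only the 2 groups in the fit and 13 to 92 with single arrays left out. Among members that did not pass between the lines, the sign turned for dod-24 (-0.27 to 0.15, positive at 0.01, 0.02, 0.05 and 0.15, without single arrays), ftn-1 (-0.13 to 0.38 without single arrays) and the lea-1 probe sets 172489_x_at (-0.01 under median centring, -0.00 to 0.09 without single arrays), 174552_s_at (-0.05 under median centring, -0.19 to 0.14 without single arrays), 182767_at (-0.17 to 0.01) and 187999_at (-0.16 to 0.02). Median centring raised the share of calls that were higher from 50.1% to 71.5% in aex-3 SUMO against N2, from 54.2% to 70% in myo-4 SUMO against N2, and lowered it from 76.5% to 60% between the lines. The replicate numbers did not pair arrays, as correlations of the deviations of same-numbered arrays were -0.194 to 0.0295; with the number as a block 6464, 5971 and 36 probe sets passed, and no call of a member between the lines changed. scl-1 fell below the filter at the 60th percentile. No detection calls were at hand, so signal over background limits dim genes to an unknown extent.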
